A study of Homo sapiens with 3 samples.

Results

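The genes described here are 10 of the 58735 features in the count tables: the nucleotide excision repair genes ERCC1, ERCC2, ERCC3, ERCC4, ERCC5, XPA and XPC, and the copper and platinum transporter genes SLC31A1, ATP7A and ATP7B. They were chosen by their symbols, and each symbol matched 1 feature. Nucleotide excision repair cuts a short single strand that holds a bulky lesion out of the DNA and fills the gap. It is the main route by which cells remove the intrastrand crosslinks that cisplatin makes. SLC31A1 (CTR1) is the high-affinity copper importer and has been described as a route for platinum into the cell, and ATP7A and ATP7B are copper-pumping ATPases that have been described as carrying platinum outward or into vesicles.

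The libraries came from FaDu, an established line of human squamous carcinoma of the hypopharynx, and from a subline of it made resistant to TPF, which is paclitaxel, cisplatin and 5-fluorouracil in combination. There were 3 single-cell libraries, 1 per group. The first held FaDu cells treated with cinobufotalin, a steroid of toad venom; the other two held the subline treated with TPF, without and with cinobufotalin. Every list of 3 values below gives the FaDu cinobufotalin, resistant TPF and resistant TPF cinobufotalin libraries in turn. All 3 groups had at least 1 drug, and neither FaDu cells without drug or with TPF nor resistant cells without TPF were analysed here. The labels give no dose or exposure time, nor whether the subline is a single clone. With 1 library per group, no difference between groups was tested, and line, drug and library cannot be told apart where FaDu and resistant cells are compared.

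After filtering, 6123, 4862 and 7525 cells remained with 134802289 to 165847771 unique molecular identifiers (UMIs, each marking 1 captured transcript) per library. Kept barcodes shared by a pair of libraries numbered 9 to 13, and 0 were in all 3. All 11 squamous epithelial markers were at a mean of 5 CPM (UMI counts on one common scale of library totals) or more. Of the fibroblast, immune and endothelial markers 0 of 8, 0 of 9 and 0 of 5 were, with summed levels of 2.02 to 7.06 CPM and COL1A2, LUM and MS4A1 at 0 in all 3 libraries. Of the erythroid markers 1 of 5 was. The FaDu library stood apart in MALAT1, a noncoding transcript of the nucleus, whose median share of a cell's UMIs was 0.0892%, 0.795% and 0.731%. The median gene of the 14656 at a mean of at least 1 CPM was also higher in the resistant libraries, by 0.45 and 0.40 on the log2 scale, so ratios of the 10 genes against FaDu are given below both as measured and relative to that median gene. Every interval is an exact 95% interval that covers counting error only.

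The promoters of 4 of the genes are shown because the report turns on how these genes differ: ERCC1 and ERCC4 encode the subunits of 1 nuclease and had different ratios, XPA lay with ERCC1, and SLC31A1 is the importer. Each is 300 bases of GRCh38.p14 from RefSeq, 5′ to 3′ on the gene's strand, from 250 bases before the start to 50 after it. Capitals mark the GC box GGGCGG on either strand, a motif read by SP1-family factors. ERCC1, of 3 listed promoters the one at chr19:45423479-45423778 on the minus strand, held 2, and the other 2 ERCC1 promoters held 0 each. ERCC4, chr16:13919904-13920203 on the plus strand, held 0. XPA, chr9:97697291-97697590 on the minus strand, held 2. SLC31A1, chr9:113221294-113221593 on the plus strand, held 3.
ERCC1: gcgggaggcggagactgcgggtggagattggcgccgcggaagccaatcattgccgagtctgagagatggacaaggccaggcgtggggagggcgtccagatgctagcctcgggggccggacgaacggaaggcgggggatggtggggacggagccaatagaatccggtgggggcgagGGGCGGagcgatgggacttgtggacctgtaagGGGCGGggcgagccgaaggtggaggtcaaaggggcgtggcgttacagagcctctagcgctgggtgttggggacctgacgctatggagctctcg
ERCC4: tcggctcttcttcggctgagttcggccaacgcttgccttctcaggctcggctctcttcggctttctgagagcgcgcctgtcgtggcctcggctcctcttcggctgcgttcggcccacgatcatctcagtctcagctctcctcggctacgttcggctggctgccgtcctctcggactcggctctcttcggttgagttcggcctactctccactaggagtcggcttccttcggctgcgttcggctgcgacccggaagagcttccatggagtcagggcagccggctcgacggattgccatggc
XPA: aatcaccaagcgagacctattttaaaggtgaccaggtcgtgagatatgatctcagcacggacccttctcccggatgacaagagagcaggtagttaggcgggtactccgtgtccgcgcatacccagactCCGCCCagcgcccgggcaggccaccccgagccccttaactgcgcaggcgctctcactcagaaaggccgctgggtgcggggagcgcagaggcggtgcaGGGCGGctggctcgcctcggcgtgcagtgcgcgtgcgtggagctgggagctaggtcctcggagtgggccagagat
SLC31A1: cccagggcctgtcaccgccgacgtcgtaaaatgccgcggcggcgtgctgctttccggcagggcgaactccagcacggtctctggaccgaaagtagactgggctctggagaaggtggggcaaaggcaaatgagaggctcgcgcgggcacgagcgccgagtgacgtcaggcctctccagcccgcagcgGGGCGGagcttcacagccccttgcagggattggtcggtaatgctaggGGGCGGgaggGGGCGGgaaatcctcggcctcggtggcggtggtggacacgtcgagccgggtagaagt

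Over all 35116 listed promoters 45.0% held a GC box. Of the other genes, ERCC2, ERCC5 and XPC held 1 each, ERCC3 and ATP7A held 0, and the 3 listed ATP7B promoters held 3, 3 and 0. The cyclic AMP response element TGACGTCA was in 1.85% of all promoters and, among these genes, in that of SLC31A1 (1 match). The E-box CACGTG, in 7.26% of all promoters, was in that of ATP7A (1 match), and the AP-1 element TGANTCA, in 7.71%, was in 1 of the 3 ATP7B promoters. These are matches of letters on both strands, not measured sites.

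UMIs of all 10 genes were counted in all 3 libraries, with ERCC1 the most abundant and ATP7B the least. CPM here count tags from 3′ libraries and are not divided by transcript length, so the order of genes is an order of captured tags. Whether intronic reads were counted is not given. The 7 repair genes together made up 120, 124 and 113 CPM, and the 3 transporters 12.7, 19.4 and 18.7 CPM. ERCC1 alone supplied 10622 of 19969, 7540 of 16760 and 6400 of 15276 repair UMIs. After ERCC1, the genes XPA, XPC, ERCC4, SLC31A1 and ERCC3 lay between 10.2 and 19.0 CPM in every library. ERCC2, ATP7A, ERCC5 and ATP7B lay below 6 CPM.

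**Figure D1:**
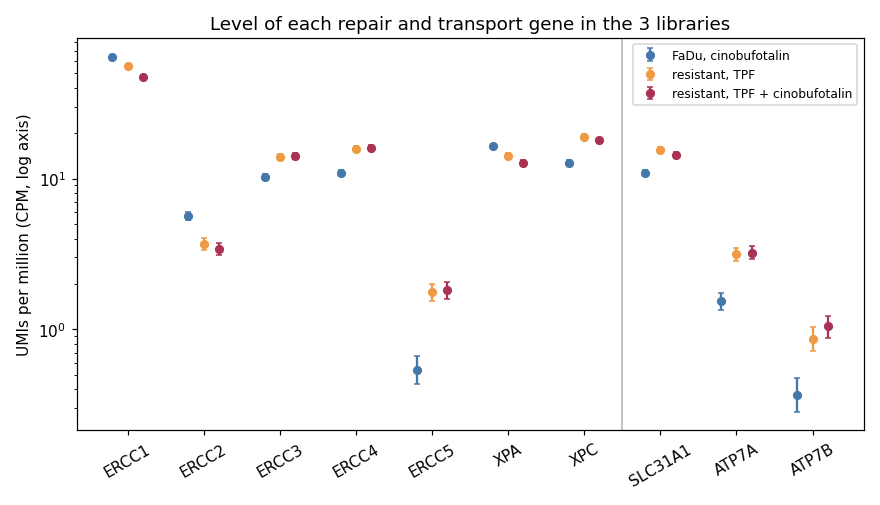
Level of each gene in CPM (log axis) in the FaDu cinobufotalin, resistant TPF and resistant TPF cinobufotalin libraries, with exact 95% Poisson intervals. The vertical line parts the repair genes from the transporters, and ERCC1 at 47.5 to 64.0 CPM lies above the other 9 genes in every library.

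Damage recognition in the genome at large falls to XPC, which binds the distorted helix. XPC was at 12.7, 19.0 and 17.9 CPM, lowest in the FaDu library on this scale of library totals. The ratio of resistant TPF to FaDu cells was 0.58 on the log2 scale (0.50 to 0.67), which is 0.13 above the median gene, and that of resistant TPF cinobufotalin to FaDu cells 0.50 (0.41 to 0.58), 0.092 above it. XPC thus differed from FaDu cells by about as much as the median gene did. Cinobufotalin with TPF against TPF alone gave -0.085 (-0.17 to -0.0046), with the median gene at -0.057. The annotated span of XPC (chr3:14145147-14178783) overlaps LSM3 on the opposite strand, with exons of both in the overlap, and LSM3 was at 446, 405 and 429 CPM. Whether the counting used strand is not given, so reads of such pairs may not be separable.

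ERCC3 (XPB) and ERCC2 (XPD) are the helicases of TFIIH, the complex that opens the helix around the lesion and also serves transcription initiation. These helicases of 1 complex differed in their ratios, and ERCC2 lay far below the median gene while ERCC3 lay close to it. ERCC3 (chr2:127257290-127294176) was at 10.2, 13.9 and 14.1 CPM, and its ratios to FaDu by library totals of 0.45 (0.35 to 0.54) and 0.47 (0.38 to 0.57) lay within 0.07 of the median gene. ERCC2 was at 5.66, 3.68 and 3.40 CPM, highest in FaDu cells, from 939, 497 and 459 UMIs.

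The ERCC2 ratio was -0.62 (-0.78 to -0.46) for resistant TPF and -0.73 (-0.90 to -0.57) for resistant TPF cinobufotalin over FaDu cells. Relative to the median gene these were -1.07 and -1.14, at percentiles 1.79 and 2.33 of all genes. With TPF present in both, cinobufotalin against none gave -0.11 (-0.30 to 0.075), an interval that includes zero. ERCC2 (chr19:45349837-45370918) overlaps exons of KLC3 on the opposite strand, which was at 13.0, 12.5 and 8.19 CPM.

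XPA, the scaffold that checks the lesion and places the nucleases, was highest in FaDu cells at 16.3, 14.1 and 12.7 CPM. Its ratio to FaDu cells was -0.21 (-0.30 to -0.12) in the resistant TPF library and -0.37 (-0.45 to -0.28) in the resistant TPF cinobufotalin library. Relative to the median gene these were -0.66 and -0.77, at percentiles 9.98 and 8.67. Between the resistant libraries XPA was -0.16 (-0.25 to -0.061) with cinobufotalin, with the median gene at -0.057. XPA lies at chr9:97674909-97697357, and it had no overlapping gene in the annotation.

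ERCC1 and ERCC4 (XPF) form the nuclease that cuts on the 5′ side of the lesion, ERCC4 holding the active site and ERCC1 binding DNA and XPA. Their RNAs had different ratios. ERCC1 was at 64.0, 55.8 and 47.5 CPM, highest in FaDu cells, and ERCC4 was at 10.9, 15.8 and 15.9 CPM, lowest there by library totals, though not under other scaling (values below). ERCC1 was -0.20 (-0.24 to -0.16) and -0.43 (-0.48 to -0.39) against FaDu cells, or -0.65 and -0.84 relative to the median gene. ERCC4 was 0.53 (0.44 to 0.62) and 0.54 (0.45 to 0.63), or 0.076 and 0.14 above the median gene.

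Cinobufotalin with TPF against TPF alone gave -0.23 (-0.28 to -0.18) for ERCC1, percentile 18.0 of all genes, and 0.013 (-0.074 to 0.10) for ERCC4. ERCC1 had the lowest ratio of the 10 genes in that comparison, and the median gene was at -0.057. The span of ERCC1 (chr19:45407333-45478828) overlaps exons of CD3EAP on the opposite strand, at 20.6, 26.5 and 24.4 CPM, and holds FOSB, at 119, 130 and 130 CPM, between its exons on the opposite strand. Relative to the median gene FOSB was at -0.33 and -0.29 and CD3EAP at -0.087 and -0.16 against FaDu cells, below it as ERCC1 was. ERCC4 lies at chr16:13920157-13952345.

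ERCC5 (XPG) cuts on the 3′ side. It was at 0.537, 1.76 and 1.82 CPM from 89, 238 and 245 UMIs, lowest in FaDu cells. Its ratios to FaDu cells of 1.71 (1.36 to 2.08) and 1.76 (1.40 to 2.13) were the highest of the 10, at percentiles 97.1 and 97.3, and lay 1.26 and 1.36 above the median gene. The ratio between the resistant libraries was 0.046 (-0.22 to 0.31). ERCC5 passed the limit of 1 CPM through the resistant libraries alone, so that a high ratio was to some degree set by the limit. Its identity is also uncertain: ERCC5 (chr13:102807146-102876001) shares exons and strand with the readthrough gene BIVM-ERCC5 (0.00603, 0.00740 and 0.00742 CPM) and overlaps BIVM (4.56, 5.20 and 4.70 CPM), and reads that these genes share cannot be told apart.

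**Figure D2:**
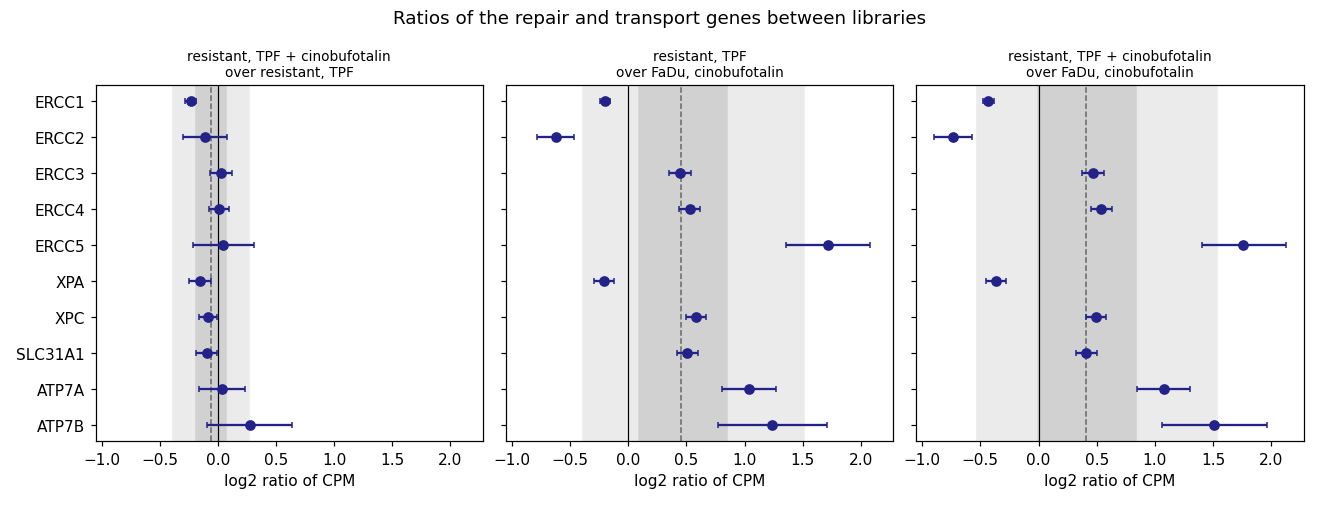
Ratios of CPM on the log2 scale for each pair of libraries, with exact 95% Clopper-Pearson intervals. The dashed line is the median of the 14656 genes, the dark band their middle part between percentiles 25 and 75 and the light band percentiles 5 to 95. ERCC1, ERCC2 and XPA lie below zero in both comparisons with FaDu, and the other genes lie above zero. ERCC5, ATP7A and ATP7B lie furthest above the median gene, while ERCC3, ERCC4, XPC and SLC31A1 lie close to it.

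Of the transporters, the importer SLC31A1 was at 10.8, 15.4 and 14.4 CPM, lowest in FaDu cells by library totals. Its ratios to FaDu of 0.51 (0.42 to 0.60) and 0.41 (0.32 to 0.51) were within 0.06 of the median gene. Between the resistant libraries it was -0.096 (-0.19 to -0.0058) with cinobufotalin, against -0.057 for the median gene. SLC31A1 lies at chr9:113221562-113264492 and overlaps CDC26 on the opposite strand with no exon in common, at 166, 237 and 263 CPM.

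The ATPases were rarer and had higher ratios. ATP7A was at 1.53, 3.14 and 3.23 CPM from 254, 425 and 435 UMIs, lowest in FaDu cells, with ratios of 1.04 (0.81 to 1.27) and 1.08 (0.85 to 1.30), or 0.59 and 0.67 above the median gene, at percentiles 83.3 and 84.7. ATP7B was at 0.368, 0.866 and 1.05 CPM from 61, 117 and 141 UMIs, also lowest in FaDu cells. Its ratios were 1.23 (0.78 to 1.71) and 1.51 (1.06 to 1.97), or 0.78 and 1.10 above the median gene.

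Between the resistant libraries the interval included zero for both, with ATP7A at 0.038 (-0.16 to 0.23) and ATP7B at 0.27 (-0.091 to 0.64). ATP7A (chrX:77910656-78050395) shares exonic sequence and strand with PGK1, at 91.0, 71.6 and 68.8 CPM, which was lower in the resistant libraries while ATP7A was higher. ATP7B lies at chr13:51930436-52012125 and did not reach a mean of 1 CPM.

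Counted at 1.5-fold, adding cinobufotalin to TPF in resistant cells left 0 of the 10 genes higher and 0 lower, where 0.430% and 0.778% of all genes were. In resistant TPF cells over FaDu cells 3 of 10 (ERCC5, ATP7A, ATP7B) were higher and 1 (ERCC2) lower, against 41.0% and 2.07% of all genes. In resistant TPF cinobufotalin cells over FaDu cells the same counts were 3 and 1, against 38.6% and 4.18%. Of the 9 genes that passed 1 CPM, 2 were higher and 1 lower in either comparison. The share of higher genes was thus near or below that of all genes. The median of the 10 was -0.036, 0.52 and 0.48 in these comparisons, against -0.057, 0.45 and 0.40 for all genes. The comparisons with FaDu share that 1 library, so they are not independent.

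The direction of several genes rested on scaling. Factors by TMM, which rest on a trimmed mean of gene ratios, moved every ratio against FaDu cells by -0.57 and -0.52. The median gene was then below zero in both comparisons, at -0.12 for resistant TPF over FaDu cells. On that scale ERCC3 was at -0.12 and -0.050 and SLC31A1 at -0.061 and -0.11. ERCC4 was at -0.041 and 0.020 and XPC at 0.013 and -0.024. ERCC1 (-0.77 and -0.95), ERCC2 (-1.19 and -1.25) and XPA (-0.78 and -0.89) stayed below zero, and ERCC5 (1.15 and 1.24), ATP7A (0.47 and 0.55) and ATP7B (0.67 and 0.99) above it. Under TMM 3 of the 9 genes (ERCC1, ERCC2 and XPA) were at least 1.5-fold lower and 1 (ERCC5) higher than FaDu cells in either comparison. Of all genes 18.6% and 21.8% were lower and 12.7% and 14.1% higher on that scale. Differences from the median gene do not depend on the scaling.

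The length of a gene moved with its ratio across the data. The median ratio of resistant TPF to FaDu cells was 0.20 over 5437 genes spanning under 20 kb, 0.44 over 4467 genes of 20 to 60 kb and 0.77 over 4752 longer genes, and 0.11, 0.39 and 0.78 for resistant TPF cinobufotalin to FaDu cells. ERCC2, ERCC3, ERCC4, XPA, XPC and SLC31A1 are in the middle class, and ERCC1, ERCC5, ATP7A and ATP7B in the longest. These classes rest on the outermost annotated ends of each gene. The ERCC1 promoter printed above (chr19:45423479-45423778) and the listed ERCC5 promoter (chr13:102845782-102846081) lie inside those spans. From these starts both genes are shorter than their spans, so their class may depend on the start used. The ERCC1 span counts transcripts that reach across FOSB. The part of span in these ratios was not tested.

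Since MALAT1 set the FaDu library apart, the genes were also read in cells of like MALAT1 share, taken from cells with at least 10000 UMIs and 2% to 8% mitochondrial UMIs. At 0.3% to 1% MALAT1 there were 881, 1706 and 2559 cells. In them ERCC1 was at 65.6, 54.5 and 48.0 CPM, ERCC2 at 5.32, 3.27 and 3.41 CPM and XPA at 15.6, 13.1 and 12.2 CPM, each again highest in FaDu cells. ERCC4 was at 11.9, 15.9 and 15.7 CPM and SLC31A1 at 11.4, 15.6 and 14.7 CPM, each again lowest there.

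The lower-count genes moved more between classes. ATP7A was at 1.70, 3.02 and 2.86 CPM and ATP7B at 0.275, 0.751 and 0.899 CPM at 0.3% to 1% MALAT1, lowest in FaDu cells as before. ERCC5 was at 1.19, 1.91 and 1.85 CPM there, a smaller gap than in all cells. In cells with under 0.05% MALAT1, of which the resistant TPF library had 75, ERCC5 rested on 1 UMI in that library and its ratio to FaDu cells turned to -0.11.

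At 1% to 2% MALAT1, with 301 FaDu cells, the order of ERCC1 changed. Its level was 55.0, 62.2 and 53.3 CPM, so that resistant TPF cells were above FaDu cells (0.18), with Poisson intervals of 49.7 to 60.8 and 59.4 to 65.1 that overlap. XPC was at 19.0, 18.5 and 20.1 CPM in those cells, with no gap to FaDu. ERCC2 (6.29, 4.44 and 3.78 CPM) and XPA (18.3, 14.7 and 12.9 CPM) kept the order seen in all cells. Their FaDu intervals (4.57 to 8.44 and 15.3 to 21.8) also overlap those of resistant TPF cells (3.72 to 5.25 and 13.3 to 16.1). Against resistant TPF cinobufotalin cells the ERCC2 interval (3.09 to 4.59) overlaps that of FaDu too, and the XPA interval (11.6 to 14.3) does not.

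**Figure D3:**
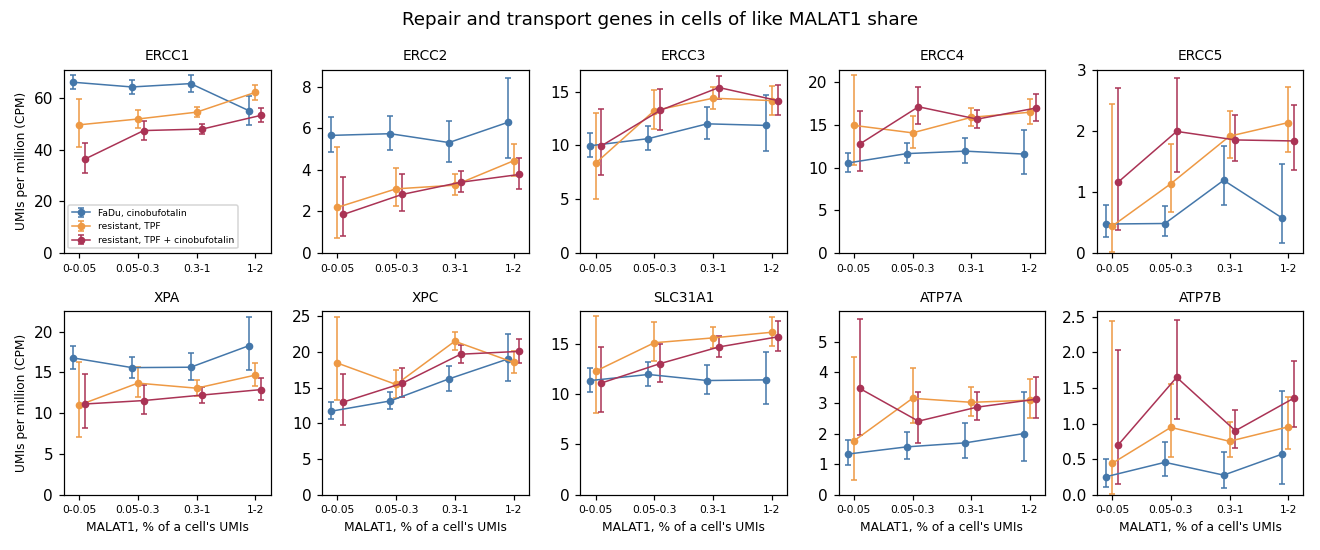
Level of each gene in CPM (linear axis from 0) in cells grouped by MALAT1 as a percentage of the cell's UMIs, per library, with exact 95% Poisson intervals. ERCC2 and XPA are highest in the FaDu library in all 4 classes, ERCC1 in the first 3, and ERCC1 is at 55.0 CPM in FaDu cells and 62.2 CPM in resistant TPF cells at 1% to 2% MALAT1.

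Relative to the median gene, ERCC1, ERCC2 and XPA stayed below and ATP7A and ATP7B above in both comparisons with FaDu under all 17 alternatives. These include each MALAT1 class and each cell cycle phase. Alternatives that only rescale whole libraries, TMM and median-of-ratios factors among them, cannot change a difference from the median gene. Such alternatives are therefore no check of it, and only the others could have differed. For resistant TPF over FaDu cells the range was -0.72 to -0.080 for ERCC1, -1.57 to -0.65 for ERCC2, -0.82 to -0.38 for XPA and 0.20 to 0.81 for ATP7A. For resistant TPF cinobufotalin over FaDu cells it was -0.94 to -0.30, -1.63 to -0.85, -0.87 to -0.42 and 0.35 to 1.37. ERCC3 and SLC31A1 lay on either side of the median gene depending on the alternative in both comparisons.

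Between the resistant libraries ERCC1 was lower with cinobufotalin under all 17 alternatives, from -0.45 to -0.12. SLC31A1 was lower under all 17 too, from -0.24 to -0.042, but on either side of the median gene. ERCC2, ERCC3, ERCC4, ERCC5, XPA, XPC, ATP7A and ATP7B each changed sign under at least 1 alternative.

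Around these genes, 73 other genes of repair and platinum or copper handling reached 1 CPM. At 1.5-fold on library totals 0 were higher and 0 lower with cinobufotalin in resistant cells, 20 were higher and 0 lower in resistant TPF over FaDu cells, and 19 were higher and 1 lower in resistant TPF cinobufotalin over FaDu cells. The 1 lower gene, named after its value was seen, was SLX1A at 2.35, 1.84 and 1.48 CPM. Medians were -0.071, 0.38 and 0.27, below those of all genes. The 20 and 19 higher genes are 27.4% and 26.0% of the 73, less than the 41.0% and 38.6% of all genes. The balance rested on scaling. Under TMM, chosen for these lists after seeing the data, 3 and 2 were higher and 14 and 15 lower than in FaDu cells. The lower genes are 19.2% and 20.5% of the 73, near the 18.6% and 21.8% of all genes. The higher genes are 4.11% and 2.74%, less than the 12.7% and 14.1% of all genes.

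In damage recognition, 0 of 8 genes beside XPC passed 1.5-fold by library totals in any comparison. Of all genes 41.0% and 38.6% were higher and 2.07% and 4.18% lower than in FaDu cells. Under TMM 0 of the 8 were higher and 2 (25%) lower in each comparison with FaDu. Of all genes 12.7% and 14.1% were then higher and 18.6% and 21.8% lower. DDB2, which senses ultraviolet lesions, was at 24.1, 25.7 and 24.6 CPM. RAD23B, a partner that stabilises XPC, was at 82.5, 112 and 103 CPM, with a ratio of -0.12 between the resistant libraries. RBX1, a ubiquitin ligase subunit, was at 1054, 943 and 1256 CPM, a ratio of 0.41 with cinobufotalin in resistant cells.

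Transcription-coupled recognition starts at stalled RNA polymerase II. By library totals 2 of 7 genes (28.6%) were higher in resistant TPF and 3 (42.9%) in resistant TPF cinobufotalin cells over FaDu cells. Of all genes 41.0% and 38.6% were. Under TMM 1 and 1 (14.3% each) were higher and 1 and 2 (14.3% and 28.6%) lower. Of all genes 12.7% and 14.1% were higher and 18.6% and 21.8% lower under TMM. ERCC6 (CSB), the factor that binds the stalled polymerase, was at 7.41, 18.8 and 18.7 CPM, and its ratio to FaDu cells was 1.34 in both, or 0.89 and 0.93 above the median gene. TCEA1, an elongation factor, was at 312, 610 and 599 CPM. ERCC8 (CSA) at 12.3, 14.7 and 14.4 CPM and ELOF1 at 34.8, 33.4 and 27.9 CPM did not pass.

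Of 7 other TFIIH subunits at 1 CPM, 3 were higher and 0 lower by library totals in each comparison with FaDu, near the share of all genes. Under TMM 0 were higher, and 4 (57.1%) were lower in resistant TPF and 3 (42.9%) in resistant TPF cinobufotalin cells. Of all genes 12.7% and 14.1% were higher and 18.6% and 21.8% lower under TMM. GTF2H1 was at 19.2, 38.4 and 35.0 CPM, GTF2H3 at 61.8, 102 and 105 CPM and MNAT1 at 82.0, 129 and 125 CPM. The kinase subunit CDK7 was at 45.8, 38.9 and 32.0 CPM, its cyclin CCNH at 39.9, 36.0 and 31.0 CPM and GTF2H2, which holds ERCC2 in the core, at 23.3, 19.6 and 18.1 CPM, all highest in FaDu cells as ERCC2 was. GTF2H5, the small subunit that steadies the complex, was at 305, 294 and 344 CPM.

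For gap filling and ligation 6 of 22 genes were higher and 0 lower by library totals against FaDu in each comparison. The 27.3% higher is below the share of all genes. Under TMM 0 were higher and 2 (9.09%) lower. Of all genes 12.7% and 14.1% were higher and 18.6% and 21.8% lower under TMM. The clamp loader subunit RFC1 was at 64.7, 143 and 123 CPM, the polymerase delta subunit POLD3 at 21.9, 45.9 and 41.5 CPM and the polymerase POLK at 13.3, 27.2 and 25.5 CPM. The sliding clamp PCNA was at 88.0, 89.3 and 77.5 CPM. PCNA and POLD3 are also S phase list genes, and cells called S made up 16.6%, 32.1% and 30.4% of the libraries. Among 5 partners of the ERCC1-ERCC4 nuclease 1 (20%) was higher by library totals in each comparison with FaDu. Of all genes 41.0% and 38.6% were. In resistant TPF cells 0 were lower and in resistant TPF cinobufotalin cells 1 (20%), against 2.07% and 4.18% of all genes. Under TMM 0 were higher and 1 and 2 (20% and 40%) lower. Between the resistant libraries their median ratio was -0.32, against -0.057 for all genes. The nuclease subunit MUS81 was at 35.7, 41.2 and 29.8 CPM.

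In copper handling 3 of 13 genes (23.1%, below the share of all genes) were higher and 0 lower by library totals against FaDu in each comparison. Under TMM 1 (7.69%) was higher and 2 (15.4%) lower in resistant TPF cells. In resistant TPF cinobufotalin cells 0 were higher and 1 (7.69%) lower. Of all genes 12.7% and 14.1% were higher and 18.6% and 21.8% lower under TMM. The chaperone ATOX1, which hands copper to ATP7A and ATP7B, was at 406, 366 and 438 CPM, with a ratio of 0.26 (0.24 to 0.28) between the resistant libraries. COX17, the mitochondrial copper chaperone, was at 352, 348 and 443 CPM, higher with cinobufotalin by 0.35. CCS, which loads SOD1, was highest in FaDu cells at 53.1, 42.8 and 36.0 CPM, while SOD1 was at 318, 427 and 431 CPM, within 0.04 of the median gene.

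LRRC8A and LRRC8D form volume-regulated anion channels that have been described as letting cisplatin in. LRRC8A was highest in FaDu cells at 90.4, 72.9 and 70.4 CPM, ratios of -0.31 and -0.36 to FaDu, or -0.76 and -0.77 relative to the median gene. LRRC8D was at 7.59, 10.8 and 9.16 CPM, ratios to FaDu cells of 0.50 and 0.27 by library totals that turn to -0.066 and -0.25 under TMM. LRRC8B was at 8.37, 15.8 and 16.3 CPM, with ratios of 0.92 and 0.96, or 0.35 and 0.44 under TMM. Of this list 2 of 5 genes (40%) were higher and 0 lower by library totals in each comparison with FaDu. That is near the 41.0% and 38.6% of all genes that were higher. Under TMM 0 of the 5 were higher and 1 and 2 (20% and 40%) lower. Of the other platinum carriers 3 of 6 (50%) and 1 of 6 (16.7%) were higher by library totals. Under TMM 1 and 1 were higher and 1 and 1 lower (16.7% each). Of all genes 12.7% and 14.1% were higher and 18.6% and 21.8% lower under TMM.

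**Figure D4:**
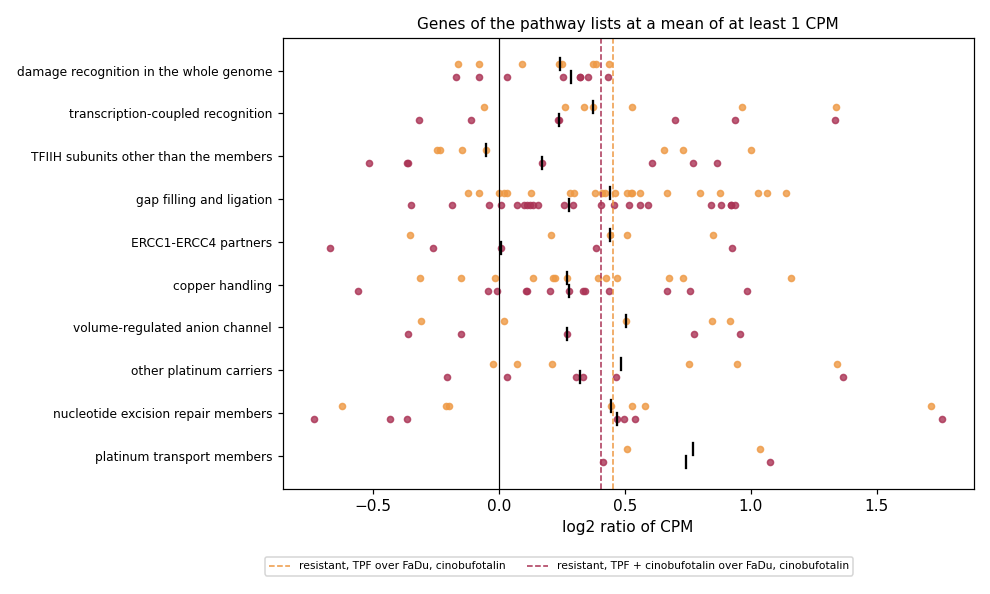
Ratios of CPM to FaDu cells on the log2 scale for the genes of each list at a mean of at least 1 CPM, 1 point per gene, orange for resistant TPF and red for resistant TPF cinobufotalin cells, with black bars at list medians and dashed lines at the medians of all genes (0.45 and 0.40). ATP7B is not drawn because it did not reach 1 CPM. The repair row runs from ERCC2 at -0.62 and -0.73 to ERCC5 at 1.71 and 1.76.

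Phases of the cell cycle were called from S and G2/M lists that hold none of them, and cells called G1, S and G2/M made up 20.3%, 16.6% and 63.1% of FaDu cells, 14.5%, 32.1% and 53.4% of resistant TPF cells and 12.7%, 30.4% and 56.8% of resistant TPF cinobufotalin cells. At 1.25-fold in all 3 libraries, 0 of the 10 were higher and 0 lower in S than in G1, where 8.63% and 6.71% of genes were. In G2/M over G1 0 were higher and 0 lower, against 4.72% and 14.9%. Counts of 0 among 10 genes are near these shares and do not show that the genes were even across phases. With 3 libraries under different drugs, this is a description.

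XPA was lower in G2/M than in G1 in each library, from 18.0 to 15.8 CPM, 17.6 to 13.3 CPM and 17.6 to 11.4 CPM. The ratios were -0.18 (-0.32 to -0.042), -0.41 (-0.60 to -0.21) and -0.62 (-0.82 to -0.41), with the median gene at -0.070, -0.11 and -0.11. In cells called G1 the level was thus 18.0, 17.6 and 17.6 CPM, and the ratio to FaDu cells was -0.033 in both resistant libraries, against -0.21 and -0.37 over all cells. Relative to the median gene of those cells XPA was still lower.

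XPC was higher in S than in G1, from 11.7 to 13.2 CPM, 16.1 to 20.6 CPM and 16.1 to 18.9 CPM, with ratios of 0.17 (-0.050 to 0.39), 0.36 (0.16 to 0.56) and 0.23 (0.019 to 0.45). The first interval includes zero. ERCC1 was lower in S than in G1, with ratios of -0.038 (-0.13 to 0.058), -0.12 (-0.23 to -0.011) and -0.29 (-0.42 to -0.17). The median gene in S over G1 was at 0.042, -0.059 and -0.010. Among all genes XPC was at percentiles 69.7, 81.9 and 72.0 and ERCC1 at 36.6, 44.5 and 26.1, so neither was extreme. ERCC2 in G2/M over G1 was at -0.021, -0.49 and -0.45, percentiles 57.8, 22.0 and 23.6 of all genes. In cells called G1 its ratio of resistant TPF to FaDu cells was -0.19.

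**Figure D5:**
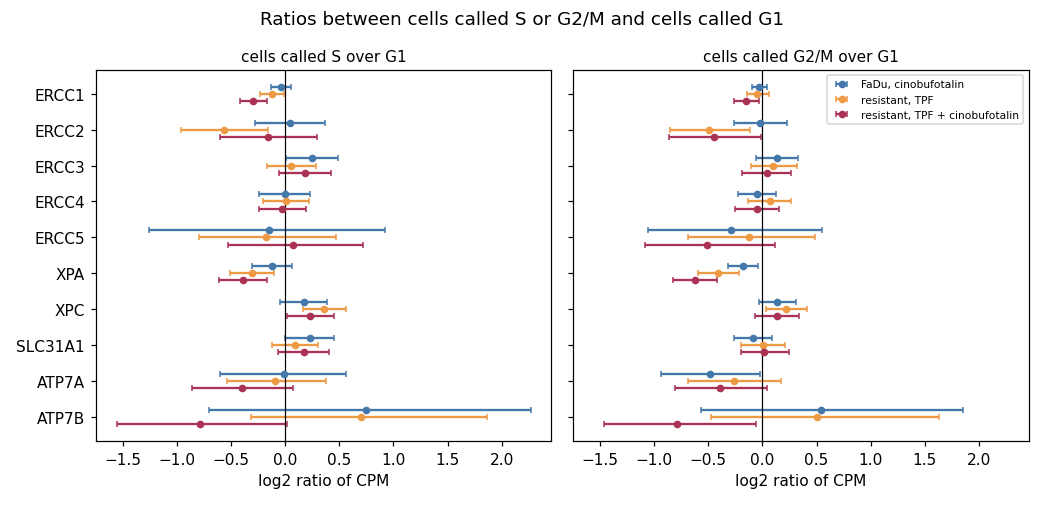
Ratios of CPM on the log2 scale between cells called S (left) or G2/M (right) and cells called G1, per library, with exact 95% Clopper-Pearson intervals. XPA in G2/M lies below zero in all 3 libraries (-0.18, -0.41 and -0.62), and the intervals of ERCC5, ATP7A and ATP7B are wide.

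In single cells the genes were sparse. With each cell thinned to 5000 UMIs, which left out 144, 205 and 571 shallower cells, ERCC1 had a UMI in 28.0% (26.8 to 29.1), 23.3% (22.0 to 24.5) and 19.7% (18.8 to 20.7) of cells. Before thinning these were 73.8%, 70.2% and 50.7%, and the median depth was 24440, 27920.5 and 17867 UMIs. XPC had a UMI in 6.04%, 9.04% and 8.47% of thinned cells, XPA in 7.73%, 7.04% and 5.65%, and SLC31A1 in 5.45%, 7.95% and 6.86%. No cell type that lacks these genes was present to give a background share.

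The other genes were rarer still. ERCC2 had a UMI in 2.94%, 1.76% and 1.47% of thinned cells, ATP7A in 0.970%, 1.63% and 1.71%, ERCC5 in 0.301%, 0.945% and 0.863% and ATP7B in 0.167%, 0.236% and 0.446%. Without a background share, none of these is read as a share of expressing cells.

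The spread between cells was close to that of other genes of like level. In cells thinned to 5000 UMIs the variance of ERCC1 over its mean was 1.05, 1.07 and 1.06, near the median of 1.07 in each library for genes of like level. The ratio for ATP7B in resistant TPF cells, 1.31, was the highest of any of the 10 and rested on 11 cells. At this depth 50.5%, 48.5% and 53.2% of cells had a UMI of none of the 10, and 11.0%, 12.9% and 11.3% had 2 or more.

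Joint detection of the nuclease subunits was close to the product of their separate shares. ERCC1 and ERCC4 were both detected in 81, 85 and 99 cells where 85.6, 85.3 and 106 were expected, ratios of 0.946 (0.751 to 1.18), 0.996 (0.796 to 1.23) and 0.933 (0.758 to 1.14). Of the pairs with at least 5 cells expected (23, 28 and 30 of 45), the interval excluded 1 in 0, 1 and 2. These were ERCC1 with SLC31A1 in resistant TPF cells (0.767) and, in resistant TPF cinobufotalin cells, ERCC1 with ATP7A (1.49) and ERCC2 with ERCC4 (0.253, from 2 cells). The 3 pairs were named after their values were seen, and each appeared in 1 library.

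Over the 9 combinations of library and phase, the genes most like ERCC1 by Pearson correlation of log2(CPM + 1), among 8143 genes at a mean of at least 10 CPM, were NUCB1 (0.984), ECH1 (0.979) and ITGB4 (0.976). ITGB4 was at 70.9, 55.0 and 45.5 CPM, ECH1 at 108, 73.1 and 56.5 CPM. Those most like SLC31A1 were C12orf4 (0.992), HNRNPM (0.991) and SAFB (0.984). The points share libraries and these genes were picked as the highest, so the values describe likeness only.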

How the data were processed

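The authors' deposited files hold UMI counts per gene and barcode, from Cell Ranger 7.0 and hg38 according to the submitters' processing notes. The libraries are 10x 3′ libraries per the labels' protocols. Annotation, intronic reads and use of strand are stated neither there nor in the labels. GENCODE 29, which held all 58735 IDs, gave spans and overlaps.

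Kept cells had at least 1000 UMIs, at least 500 genes and no more than 20% mitochondrial UMIs. Their counts, summed by library, were scaled to CPM. Log2 ratios have 95% Clopper-Pearson intervals (Python 3.11.15, numpy 2.4.6, scipy 1.17.1, pandas 2.3.3). TMM factors (0.778, 1.15 and 1.12) came from edgeR 4.0.16 in R 4.3.3, which made no test. Phases were called with scanpy 1.11.5 in cells thinned to 5000 UMIs. No doublet caller was run, and free RNA was not corrected for. The calculation was tested on simulated data.

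Genes and lists were chosen with earlier results of these data known. Named are the 10 genes, up to 3 highest and 3 lowest per list and comparison at 10 CPM, ATOX1, LRRC8A, LRRC8D, DDB2, RAD23B and GTF2H5, overlapping genes, the 3 genes most like ERCC1 and SLC31A1, and MALAT1. Alternatives covered filters, scaling, thinning, phases, MALAT1 classes and, chosen after seeing the data, the removal of cells above 2 times their library's median UMIs and TMM for the pathway lists.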

Additional observations from a re-analysis of the deposited data

How the results depend on the processing

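The numbers of genes past 1.5-fold rest on the choices made. In resistant TPF over FaDu cells 2 of the 9 genes at 1 CPM were higher, and 1 were under TMM, 1 under median-of-ratios factors, 5 in cells thinned to 5000 UMIs, 1 at 0% to 0.05% MALAT1 and 0 among genes at 10 CPM. The 1 lower gene became 3 under TMM, 3 under median-of-ratios factors, 2 at 0% to 0.05% MALAT1, and 0 with equal weight per cell, in cells called G1, at 1% to 2% MALAT1 and at 10 CPM. In resistant TPF cinobufotalin over FaDu cells the 2 higher became 1 under TMM, 1 under median-of-ratios factors and 0 at 10 CPM, and the 1 lower became 3, 3 and 0 there, 0 in cells called G1 and 3 at 0% to 0.05% MALAT1. Between the resistant libraries the 0 higher became 2 at 0% to 0.05% and 1 at 0.05% to 0.3% MALAT1. The limit of 10 CPM leaves fewer genes to count, since ERCC2, ERCC5, ATP7A and ATP7B are below it, and the cause of the other shifts was not tested. ERCC5 in resistant TPF over FaDu cells reversed to -0.11 at 0% to 0.05% MALAT1. Of the ratios of single genes under alternatives 363 stayed within the counting interval of the reported value, 146 moved outside it and 1 reversed. Sign changed in 23 of 170 between the resistant libraries, 10 of 170 in resistant TPF and 8 of 170 in resistant TPF cinobufotalin over FaDu cells, and ERCC5 above was the only one of these with a reported ratio past 1.5-fold. Depth limits ATP7B and ERCC5 most, with 61 and 89 UMIs in the FaDu library.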
